A study of Mus musculus with 12 samples.

Results

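Guanylate-binding proteins (GBPs) and immunity-related GTPases (IRGs) are large GTP-hydrolysing proteins that interferons induce in many cell types. Described here are 10 of their genes in mouse bone marrow-derived dendritic cells (BMDCs): Gbp2, Gbp3, Gbp5 and Gbp7, Gbp4, Gbp6, Gbp8 and Gbp9, and the IRGs Irgm1 and Igtp. They were chosen by symbol in the deposited count tables, which list 41709 genes, and all 10 were found and passed the filter on low counts in every comparison. GBPs assemble on the membranes of vacuoles that hold pathogens and on bacteria whose lipopolysaccharide (LPS) reaches the cytosol, where they promote lysis and the activation of inflammatory caspases. Effector IRGs load onto vacuole membranes as well, while the regulatory IRGs Irgm1 and Igtp (also known as Irgm3) hold effector IRGs inactive on the cell's own membranes. Their promoters are known targets of transcription factors that act downstream of interferons, IRF1 among them. In macrophages and DCs, TLR4 is known to lead from LPS to interferon-β by way of the adaptor TRIF.

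BMDCs of 2 genotypes were compared. In both, the mice carried 2 alleles of Itgb2, the gene of the β2 integrin chain CD18, with loxP sites around exon 3. CD18fl/fl mice served as the control, and in CD18CD11c cKO mice Cre recombinase was driven by the promoter of CD11c, so that excision depended on the activity of that promoter. Bone marrow was cultured for 10 days with GM-CSF, and BMDCs of each genotype were left unstimulated or were given 100 ng/mL LPS, for 24 h per the labels. MHCII+ cells were enriched magnetically before RNA-seq, with 3 libraries in each of the 4 groups. Nothing in the labels says whether the 3 libraries of a group came from separate mice, so all p-values measure the spread between these libraries. The age and sex of the mice behind each library are not given in the sources used here.

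The 12 libraries held between 29689149 and 34037178 gene reads each. A floor of 3 reads was equal to 0.0881 to 0.101 CPM (reads scaled to the total of the library), which covers counting error alone because PCR copies were not marked by molecular identifiers. In each group replicate 3 stood apart from replicates 1 and 2. All 8 dendritic cell markers were above 3 reads in every library, but their summed CPM was lower in replicate 3 (12725 to 16864 against 19417 to 33333). Among them, unstimulated Ccr7 was at 2268, 2266 and 241 CPM in CD18fl/fl and 1868, 1431 and 200 in CD18CD11c cKO (replicates 1, 2 and 3). After LPS, Ccr7 was at 2379, 2823 and 1238, and 1655, 1309 and 1220 CPM. Unstimulated Itgax was instead highest in replicate 3 (174, 210 and 453, and 142, 143 and 680 CPM). The summed CPM of 6 NK cell markers was between 0 and 3.99 in all libraries. Replicate 3 held more signal from 5 plasmacytoid DC markers (10.1 to 33.7 CPM against 1.73 to 5.48 in replicates 1 and 2) and from 5 mast cell and basophil markers (15.6 to 117 against 0.483 to 11.3), and less from 5 B cell markers (0.636 to 2.54 against 8.64 to 138). The summed CPM of 8 neutrophil and precursor markers ranged from 108 to 1690 in unstimulated and from 60.3 to 112 in LPS-treated BMDCs. That of 7 macrophage markers ranged from 1359.5 to 1759 and from 466 to 1059, respectively, and that of 7 T cell markers from 4.16 to 36.8 and from 3.92 to 7.88. The part of these markers in the results was not tested. In bulk RNA, fewer cells of a type and less RNA per cell cannot be told apart.

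Itgb2 was lower in CD18CD11c cKO libraries. Its normalized CPM was 382, 420.2 and 379 in unstimulated CD18fl/fl BMDCs and 120.5, 163 and 189 in unstimulated CD18CD11c cKO BMDCs, and 167, 171 and 267 against 114, 89.7 and 119 after LPS. The groups did not overlap in either state. By edgeR's quasi-likelihood test, the log2 fold change was -1.26 ± 0.23 (SE, adjusted p = 0.0887) in unstimulated and -0.93 ± 0.29 (SE, adjusted p = 0.428) in LPS-treated BMDCs. With the replicate number as a block the adjusted p was 0.00392 and 0.0201, respectively. Reads are counted over the whole gene, so transcripts that lack only exon 3 still contribute.

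The 10 genes lie in 4 places of the mouse genome, given here in the GRCm39 coordinates of the files. On chromosome 3, plus strand, lie Gbp5 (ENSMUSG00000105504, chr3:142199739-142228105), Gbp7 (ENSMUSG00000040253, chr3:142236103-142255910), Gbp3 (ENSMUSG00000028268, chr3:142265787-142278970) and Gbp2 (ENSMUSG00000028270, chr3:142326363-142343769), and between the last 2 lies the related gene Gbp2b. Minus-strand genes on chromosome 5 are Gbp8 (ENSMUSG00000034438, chr5:105162016-105287406), Gbp9 (ENSMUSG00000029298, chr5:105225496-105287405) and Gbp4 (ENSMUSG00000079363, chr5:105263633-105287452), whose annotated spans overlap one another, and Gbp6 (ENSMUSG00000104713, chr5:105418568-105441564). Irgm1 (ENSMUSG00000046879, chr11:48752795-48762510, minus strand) stands at the edge of a run of 8 IRG family genes, and Igtp (ENSMUSG00000078853, chr11:58090382-58098417, plus strand) overlaps its neighbour Irgm2.

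Sequence shared between the genes limits how well reads can be assigned. Of the 59-base words in the exons of Gbp6, as long as the reads, 59.8% also occur in another gene, mainly Gm43302 (53.2%) and Gbp10 (49%). Accordingly, 17.4% to 28.0% of Gbp6 reads were unique, averaged over each group, and the level of Gbp6 is uncertain. For the other 9 genes, 1.38% to 14.9% of the words were shared and at least 96.5% of reads were unique in every group.

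The promoter sequences were searched for letters that match interferon-related and other motifs close to annotated starts. The RefSeq promoter table (GRCm38.p6) held windows for 6 of the 10 genes, namely Gbp5, Gbp7, Gbp3, Gbp2, Irgm1 and Igtp, with 7 windows in all, since Gbp3 had 2. Each window of 300 bases runs from 250 bases before to 50 bases after a start and was placed in GRCm39 by an exact match. The window of Gbp5 begins from a start 2956 bases, and that of Irgm1 from one 263 bases, away from the gene start in the files. Windows were searched on both strands for 3 motifs. These were the core of the interferon-stimulated response element (ISRE), searched as GAAA and GAAA with any 2 bases between them, the gamma-activated site (GAS), an element through which interferon-γ acts, searched as TTCNNNGAA, and a κB-like motif, searched as GGGA and TTTCC with any 1 base between them. The windows of the gene with the largest LPS response on this chromosome 3 cluster (Gbp5), its neighbour without a detectable response (Gbp7), the most abundant GBP (Gbp2), its neighbour with negative LPS fold changes (Gbp2b) and both IRGs are printed 5′ to 3′ on the strand of the gene, with ISRE and GAS matches in capitals.
Gbp5 (chr3:142202445-142202744, plus strand): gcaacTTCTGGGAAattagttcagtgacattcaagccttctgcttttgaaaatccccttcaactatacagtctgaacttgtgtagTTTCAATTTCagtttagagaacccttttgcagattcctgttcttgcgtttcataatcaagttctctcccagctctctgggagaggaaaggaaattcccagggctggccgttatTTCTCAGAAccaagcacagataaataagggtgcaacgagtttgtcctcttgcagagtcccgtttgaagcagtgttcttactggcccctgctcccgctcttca
Gbp7 (chr3:142235847-142236146, plus strand): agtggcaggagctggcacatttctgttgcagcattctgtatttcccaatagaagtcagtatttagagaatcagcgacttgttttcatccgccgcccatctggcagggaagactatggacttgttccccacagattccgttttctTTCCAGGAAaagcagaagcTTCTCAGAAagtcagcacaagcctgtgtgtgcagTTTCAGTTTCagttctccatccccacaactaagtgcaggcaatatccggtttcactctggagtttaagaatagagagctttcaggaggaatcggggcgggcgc
Gbp2 (chr3:142326174-142326473, plus strand): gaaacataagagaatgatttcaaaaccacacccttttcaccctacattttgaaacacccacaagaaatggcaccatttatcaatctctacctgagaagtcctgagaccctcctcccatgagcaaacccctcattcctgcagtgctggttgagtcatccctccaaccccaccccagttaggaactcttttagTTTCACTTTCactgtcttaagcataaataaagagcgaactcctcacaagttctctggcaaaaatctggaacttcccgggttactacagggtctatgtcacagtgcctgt
Gbp2b (chr3:142300358-142300657, plus strand): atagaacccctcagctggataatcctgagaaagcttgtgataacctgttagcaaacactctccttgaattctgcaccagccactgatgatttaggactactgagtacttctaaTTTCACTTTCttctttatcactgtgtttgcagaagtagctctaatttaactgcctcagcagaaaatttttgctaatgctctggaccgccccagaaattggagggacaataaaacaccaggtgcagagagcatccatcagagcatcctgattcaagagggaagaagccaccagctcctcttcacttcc
Irgm1 (chr11:48762198-48762497, minus strand): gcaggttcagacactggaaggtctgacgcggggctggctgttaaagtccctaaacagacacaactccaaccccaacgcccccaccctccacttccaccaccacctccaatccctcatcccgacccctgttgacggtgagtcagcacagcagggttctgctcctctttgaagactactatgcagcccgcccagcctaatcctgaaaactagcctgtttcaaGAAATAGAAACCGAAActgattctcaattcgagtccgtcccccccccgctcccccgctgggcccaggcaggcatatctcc
Igtp (chr11:58090132-58090431, plus strand): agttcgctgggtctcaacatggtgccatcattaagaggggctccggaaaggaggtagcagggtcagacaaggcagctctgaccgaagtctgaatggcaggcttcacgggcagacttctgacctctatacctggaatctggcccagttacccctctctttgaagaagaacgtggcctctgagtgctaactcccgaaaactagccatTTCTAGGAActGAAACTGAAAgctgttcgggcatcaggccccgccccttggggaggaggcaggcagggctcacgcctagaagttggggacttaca

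An ISRE match was found in 6 of the 7 windows, and in 3.44% of the 32851 windows of all genes. The window without one was the second window of Gbp3, which held none of the 3 motifs, while its first window held ISRE matches. Counted from the start, the match began at position -165 in Gbp5, -53 in Gbp7, -59 in Gbp2 and -34 in Igtp. The first window of Gbp3 and that of Irgm1 each held 2 overlapping ISRE matches, which began at -45 and -39 in Gbp3 and at -30 and -24 in Irgm1. GAS matches were found in Gbp5 (2), Gbp7 (2) and Igtp (1), and in 8.30% of all windows. A κB-like match was found in Gbp5 alone among the 6, and in 0.411% of all windows. Gbp2b held 1 ISRE match, at position -137. These matches describe the letters in the windows and do not show binding.

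**Figure D1:**
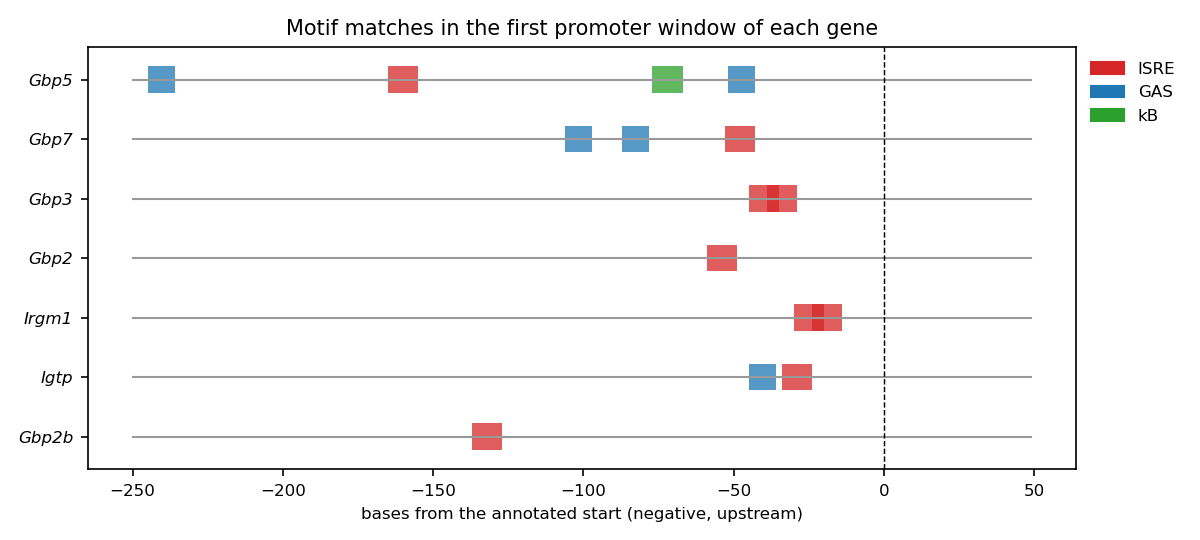
Motif matches in the promoter windows of 6 GBP and IRG genes (for Gbp3, the first of its 2 windows) and Gbp2b, plotted as bases from the annotated start (x axis, negative values upstream). Bars mark matches to ISRE (red), GAS (blue) and the κB-like motif (green), and the darker part of the bars of Gbp3 and Irgm1 is where 2 ISRE matches overlap.

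In unstimulated BMDCs, Gbp2 was the most abundant of the 10 transcripts. Levels of different genes were compared as TPM, the share of transcripts after division by length, which the authors deposited. In unstimulated CD18fl/fl BMDCs, Gbp2 was at 91.3, 67.9 and 22.4 TPM, and the range of its libraries did not overlap that of the second gene, Gbp3 (21.3, 21.3 and 8.76 TPM). From the second to the tenth rank, the ranges of each gene and the next overlapped. The means ± SD (n = 3) in that order were 17.1 ± 7.25 TPM for Gbp3, 15.9 ± 3.23 for Gbp8, 14.2 ± 3.96 for Irgm1, 13.1 ± 5.12 for Igtp, 9.59 ± 3.86 for Gbp5, 8.05 ± 6.64 for Gbp7, 3.88 ± 2.53 for Gbp4, 3.23 ± 2.23 for Gbp9 and 2.70 ± 1.48 for Gbp6. In unstimulated CD18CD11c cKO BMDCs Gbp2 was likewise first, at 83.4, 67.9 and 43.6 TPM, and apart from Gbp3 (18.7, 11.7 and 13.2 TPM).

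After LPS, Gbp2 was still first (317 ± 110 TPM in CD18fl/fl and 256 ± 64.1 in CD18CD11c cKO, SD, n = 3) and Gbp5 came second (107 ± 103 and 74.5 ± 62.9 TPM), followed by Irgm1 (62.6 ± 7.64 and 39.9 ± 13.4). Gbp2 was above Gbp5 in each of the 3 libraries of both genotypes, though the ranges overlapped in CD18fl/fl. Rank 10 was held by Gbp9 in both genotypes (11.6 ± 1.48 and 5.92 ± 0.832 TPM). The summed TPM of the 10 genes was 194, 155 and 95.5 in unstimulated CD18fl/fl, 153, 123 and 109 in unstimulated CD18CD11c cKO, 630, 452 and 948 in LPS-treated CD18fl/fl and 388, 412 and 670 in LPS-treated CD18CD11c cKO libraries. Each LPS-treated library thus held more than any unstimulated one. Gbp2 supplied 45% to 55% of this sum in the LPS-treated libraries. In unstimulated libraries its share was lower in replicate 3 (23.5% and 40.1%) than in replicates 1 and 2 (43.7% to 55.1%).

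To find out how LPS affected the 10 genes, LPS-treated and unstimulated BMDCs were compared within each genotype. In CD18fl/fl BMDCs, 9 of the 10 genes had no overlap between the groups and were higher in each LPS-treated library than in any unstimulated one, and Gbp7 overlapped. Among all 12744 genes tested, 13.6% were higher without overlap. By edgeR's quasi-likelihood test with Benjamini-Hochberg adjustment, 4 of the 10 (Gbp2, Gbp5, Gbp6 and Irgm1) passed an adjusted p of 0.05, all higher after LPS, against 2.06% of all genes. With the replicate block, 8 passed, Gbp3 and Gbp7 being the exceptions, against 6.33% of all genes. DESeq2 called 9, all but Gbp7, against 6.91% of all genes. The median log2 fold change of the 10 genes was 2.03, and that of all genes tested was -0.02. Without replicate 1 or 2 of either CD18fl/fl group, none of the 10 passed, and 0 of all genes passed in each of these fits. Without unstimulated replicate 3 there were 3, against 252 of 13310 genes higher. Without LPS-treated replicate 3 there were 8, against 1613 of 13206 genes higher. Replicates 1 and 2 alone gave 9, against 23.2% of all genes.

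In CD18CD11c cKO BMDCs, again 9 of the 10 genes were higher without overlap and Gbp7 overlapped, against 14.8% of 12687 genes. Here 7 of the 10 passed the test (Gbp2, Gbp4, Gbp5, Gbp6, Gbp8, Irgm1 and Igtp), all higher, against 2.23% of all genes. With the replicate block 9 passed, all but Gbp7, against 10.2%, and DESeq2 called 8, Gbp7 and Gbp9 being the exceptions, against 5.45%. The median log2 fold change of the 10 was 1.68, and that of all genes was -0.01. None passed without unstimulated replicate 1, unstimulated replicate 2 or LPS-treated replicate 2 of CD18CD11c cKO. In these fits 0, 4 and 2 of all genes passed, respectively. Without LPS-treated replicate 1, 1 of the 10 passed, against 21 of 13289 genes higher. Without unstimulated replicate 3 there were 3, against 197 of 13256 genes higher. Without LPS-treated replicate 3 there were 7, against 545 of 13244 genes higher. Replicates 1 and 2 alone gave 7, against 7.93% of all genes.

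**Figure D2:**
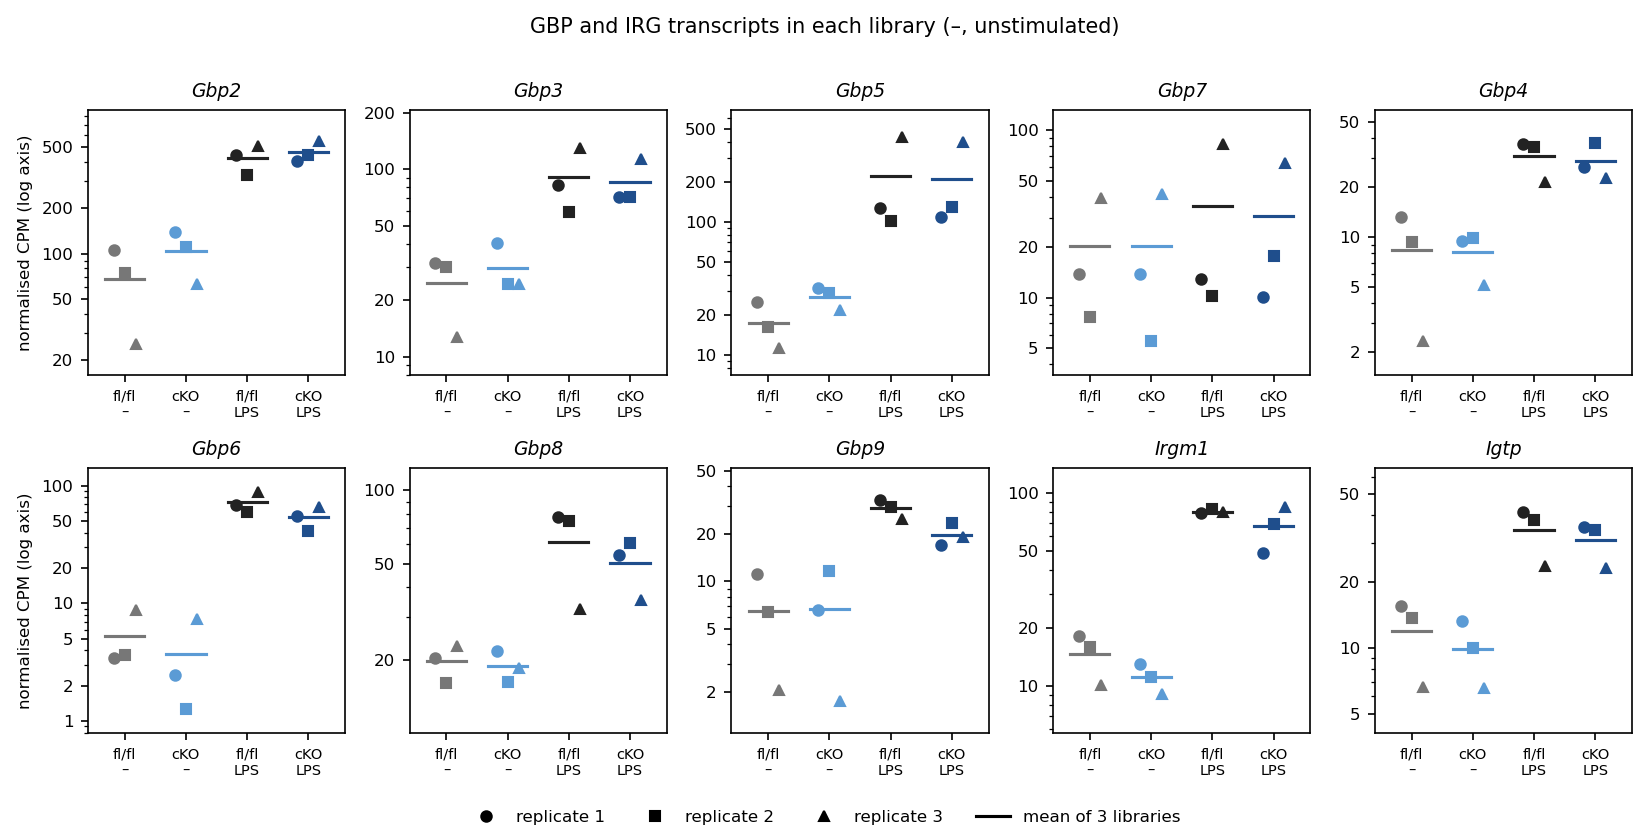
Normalized CPM (y axis, log scale, its range set for each gene) of the 10 genes in the 12 libraries, by genotype and stimulation (x axis). Symbols mark the replicate number and horizontal lines the mean of 3 libraries. For 9 genes all LPS-treated libraries lie above all unstimulated libraries of the same genotype, while for Gbp7 replicate 3 (triangles) lies above replicates 1 and 2 in each group.

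Gbp2, which acts on Toxoplasma vacuoles and on cytosolic bacteria, was at 105, 74.4 and 25.5 CPM in unstimulated CD18fl/fl libraries (replicates 1, 2 and 3) and at 444, 329.9 and 509 CPM after LPS. In CD18CD11c cKO it rose from 139.7, 111 and 63.1 CPM to 404, 448 and 552 CPM. Replicate 3 was the lowest library of both unstimulated groups and the highest of both LPS-treated groups. The log2 fold changes were 2.65 ± 0.53 (SE, adjusted p = 0.0456, edgeR) in CD18fl/fl and 2.12 ± 0.35 (SE, adjusted p = 0.0294) in CD18CD11c cKO, or 6.27-fold and 4.36-fold.

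Gbp5, a GBP that promotes NLRP3 inflammasome assembly, was at 25.0, 16.1 and 11.3 CPM in unstimulated and at 126, 100.5 and 433 CPM in LPS-treated CD18fl/fl libraries. The levels in CD18CD11c cKO were 31.6, 29.0 and 21.6 CPM and 108, 129 and 394 CPM. LPS-treated replicate 3 exceeded the mean of the other 2 libraries of its group 3.83-fold and 3.32-fold. The fold change was 12.6 in CD18fl/fl (log2 3.66 ± 0.67, adjusted p = 0.0371) and 7.61 in CD18CD11c cKO (log2 2.93 ± 0.56, adjusted p = 0.0415).

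Gbp3 did not pass in either genotype by the test without the block. Its CPM was 31.6, 29.9 and 12.7 against 82.0, 59.5 and 129.8 in CD18fl/fl (log2 1.87 ± 0.45, adjusted p = 0.0689, and 0.0574 with the block), and 40.1, 24.5 and 24.4 against 71.1, 71.0 and 113 in CD18CD11c cKO (log2 1.49 ± 0.33, adjusted p = 0.0543, and 0.0148 with the block). The groups did not overlap in either genotype.

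Gbp7, a GBP that takes part in oxidative killing and autophagy in macrophages, showed no detectable change with LPS. CPM was 13.9, 7.67 and 39.5 before and 12.8, 10.2 and 82.8 after LPS in CD18fl/fl libraries, and 13.8, 5.50 and 41.3 and then 10.1, 17.6 and 63.9 in CD18CD11c cKO. Replicate 3 exceeded the mean of the other 2 by 3.66-fold to 7.20-fold in the 4 groups. The log2 fold change was 0.81 ± 0.93 (adjusted p = 0.634) in CD18fl/fl and 0.59 ± 0.88 (adjusted p = 0.759) in CD18CD11c cKO, and with the block 0.46 ± 0.29 (adjusted p = 0.307) and 0.57 ± 0.38 (adjusted p = 0.331). Without the LPS-treated replicate 3 of the genotype tested it turned to -0.81 and -0.64.

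Of the chromosome 5 genes, Gbp6 had the largest fold change. Its CPM went from 3.41, 3.66 and 8.82 to 68.4, 59.8 and 89.2 in CD18fl/fl (log2 3.78 ± 0.45, adjusted p = 0.0160) and from 2.46, 1.27 and 7.40 to 55.1, 41.5 and 65.9 in CD18CD11c cKO (log2 3.82 ± 0.66, adjusted p = 0.0335), or 13.8-fold and 14.1-fold. The groups did not overlap in either genotype. Most of these reads were not unique to Gbp6, as given above, and with unique reads alone and no block its adjusted p in CD18CD11c cKO was 0.0678.

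Gbp4, Gbp8 and Gbp9 lie next to each other on chromosome 5 and their annotated spans overlap. Gbp4 was at 13.3, 9.35 and 2.33 CPM in unstimulated and 36.9, 35.0 and 21.6 CPM in LPS-treated CD18fl/fl libraries (log2 1.91 ± 0.60, adjusted p = 0.120, and 0.0213 with the block). In CD18CD11c cKO it went from 9.43, 9.94 and 5.15 to 26.7, 37.1 and 22.8 CPM (log2 1.77 ± 0.34, adjusted p = 0.0415). Gbp8 went from 20.5, 16.1 and 23.0 to 77.6, 74.5 and 32.5 CPM in CD18fl/fl (log2 1.64 ± 0.37, adjusted p = 0.0614, and 0.0456 with the block) and from 21.9, 16.3 and 18.5 to 54.3, 60.8 and 35.4 CPM in CD18CD11c cKO (log2 1.35 ± 0.27, adjusted p = 0.0436). For both genes the groups did not overlap. In contrast to Gbp5, replicate 3 of Gbp8 was the lowest LPS-treated library of both genotypes.

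Gbp9 was at 11.2, 6.37 and 2.06 CPM in unstimulated and at 32.8, 29.6 and 24.7 CPM in LPS-treated CD18fl/fl libraries (log2 2.15 ± 0.57, adjusted p = 0.0847, and 0.0212 with the block). In CD18CD11c cKO the values were 6.62, 11.7 and 1.76 CPM before and 16.9, 23.4 and 19.1 CPM after LPS (log2 1.52 ± 0.61, adjusted p = 0.207, and 0.0427 with the block). The groups did not overlap in either genotype. Of the reads counted on Gbp8, 11.8% to 14.4% (group means) fell in introns, a share that was at most 2.76% in the other 9 genes. In replicate 3 of Gbp8 it was 6.87% (CD18fl/fl) and 7.03% (CD18CD11c cKO) before and 24.4% and 22.4% after LPS. The Gbp8 level of LPS-treated replicate 3 thus includes more intron reads.

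Irgm1, the regulatory IRG whose loss is known to make mice susceptible to many intracellular pathogens, had the smallest adjusted p of the 10 genes in both genotypes. It was at 18.3, 15.9 and 10.2 CPM in unstimulated and 78.6, 82.5 and 79.8 CPM in LPS-treated CD18fl/fl libraries, and at 13.0, 11.2 and 9.17 CPM and then 49.03, 69.1 and 84.9 CPM in CD18CD11c cKO. The log2 fold changes were 2.45 ± 0.28 (adjusted p = 0.0150) and 2.57 ± 0.31 (adjusted p = 0.0156), or 5.45-fold and 5.94-fold. Igtp, which shares the regulatory role, went from 15.5, 13.6 and 6.63 to 41.3, 38.2 and 23.5 CPM in CD18fl/fl (log2 1.53 ± 0.39, adjusted p = 0.0803, and 0.0114 with the block), and from 13.2, 9.94 and 6.53 to 35.3, 34.5 and 23.0 CPM in CD18CD11c cKO (log2 1.59 ± 0.32, adjusted p = 0.0450). Within replicates 1, 2 and 3, the log2 ratio of LPS-treated to unstimulated Igtp was 1.41, 1.48 and 1.83 in CD18fl/fl and 1.42, 1.80 and 1.81 in CD18CD11c cKO.

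**Figure D3:**
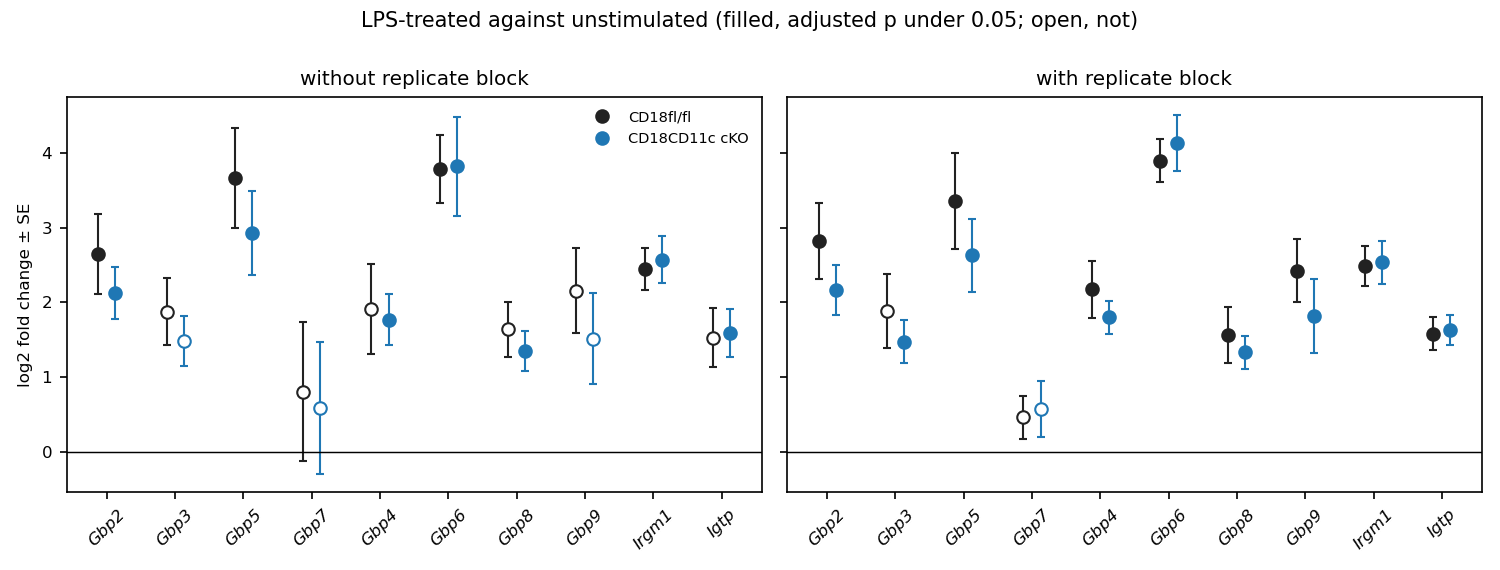
Log2 fold change of LPS-treated against unstimulated BMDCs (y axis, with the SE) for the 10 genes (x axis) in CD18fl/fl (black) and CD18CD11c cKO (blue), without and with the replicate block. Filled circles passed an adjusted p of 0.05, which were 4 and 7 genes without and 8 and 9 genes with the block, and Gbp7 passed in none.

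The 12 libraries were also used to find the genes whose level followed the 10 most closely. Pearson's r between a gene's log2 CPM and the mean standardised profile of the 10 genes was highest for Trim30d (0.990), followed by Ifi209, Isg15, Sp100, Ifit1, Dhx58, Nr4a3, Ifit2, Usp18 and Ptgs2 (0.981). The libraries share the 4 groups and the replicate numbers, so r is a description. Of the 10 members themselves, Irgm1 was the most like this profile (0.987) and Gbp7 the least (0.226). Trim30d, a TRIM family gene, was at 26.0, 16.4 and 8.98 CPM in unstimulated and 134, 115 and 103 CPM in LPS-treated CD18fl/fl libraries. Isg15, the ubiquitin-like interferon-stimulated protein, was at 17.3, 8.60 and 3.53 and at 500.4, 588 and 468 CPM. Each of these 10 genes passed the LPS test in both genotypes, where 2.06% (CD18fl/fl) and 2.23% (CD18CD11c cKO) of all genes passed higher. Their log2 fold changes were from 1.65 (Nr4a3 in CD18CD11c cKO) to 6.87 (Ptgs2 in CD18CD11c cKO). The genes were picked by r with a profile that rose with LPS in these same libraries. Their passing therefore follows largely from the selection and is no separate result.

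The comparison of the genotypes asked whether loss of CD18 in BMDCs goes along with another level of these GTPases. In unstimulated BMDCs all 10 genes overlapped between CD18fl/fl and CD18CD11c cKO, where 24.8% of 12876 genes did not overlap. By edgeR, 0 of the 10 genes and 0% of all genes passed, and 0 of the 10 had an unadjusted p under 0.05. DESeq2 called 0 of the 10 and 6.03% of all genes. With the replicate block 2 of the 10 passed, both higher in CD18CD11c cKO, against 12.1% of all genes higher. These were Gbp2 (log2 0.82 ± 0.20, adjusted p = 0.0296) and Gbp5 (log2 0.76 ± 0.18, adjusted p = 0.0267). Their log2 ratios within replicates 1, 2 and 3 were 0.41, 0.58 and 1.31 for Gbp2 and 0.34, 0.85 and 0.94 for Gbp5. With the block in a fit on all 12 libraries the adjusted p was 0.325 for Gbp2 and 0.479 for Gbp5, and with the block and library size scaling neither passed. Without the block, Gbp2 was at 0.66 ± 0.54 (adjusted p = 0.579) and Gbp5 at 0.70 ± 0.34 (adjusted p = 0.349) on the log2 scale.

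The direction of smaller differences depended on the scaling. Scaling by library size moved the median over all genes, as a log2 fold change between the genotypes, from -0.05 to -0.44 in unstimulated and from -0.11 to -0.37 in LPS-treated BMDCs. Of the 10 differences in unstimulated BMDCs, 6 were above 0 with TMM scaling and 2 with library size scaling, where Gbp3, Gbp4, Gbp7 and Gbp9 were below 0. With library size scaling and the block, Irgm1 passed (log2 -0.72). This setting lowers the median of all genes to -0.46 and called 3882 of 12876 genes lower. With TMM scaling, Irgm1 (log2 -0.36 ± 0.29, adjusted p = 0.574) and Igtp (-0.22 ± 0.41, adjusted p = 0.825) lay below the median of all genes, and both were lower in CD18CD11c cKO within each of the 3 replicate numbers. So was Gbp6, with log2 ratios of -0.47, -1.53 and -0.25. For Igtp the ratio in replicate 3 was -0.021. Its fold change turned to log2 0.018 without CD18fl/fl replicate 1 and 0.019 without CD18CD11c cKO replicate 3.

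After LPS, 9 of the 10 genes overlapped between the genotypes. Gbp9 was lower in each CD18CD11c cKO library (16.9, 23.4 and 19.1 CPM) than in any CD18fl/fl library (32.8, 29.6 and 24.7 CPM), where 8.09% of 12441 genes were lower without overlap. By edgeR, 0 of the 10 genes and 0% of all genes passed. Gbp9 alone had an unadjusted p under 0.05, with a log2 fold change of -0.58 ± 0.24 (adjusted p = 0.503, and 0.0905 with the block). Gbp6 was at -0.45 ± 0.28 (adjusted p = 0.671, and 0.0931 with the block) and was lower within each of the 3 replicate numbers, with log2 ratios of -0.31, -0.53 and -0.44. DESeq2 called 0 of the 10 genes and 1.3% of all genes, and the replicate block 0 of the 10 and 10.1% of all genes. The summed CPM of 7 macrophage markers was also lower without overlap in LPS-treated CD18CD11c cKO libraries (466, 713 and 722) than in CD18fl/fl libraries (1017, 1059 and 857), and its part in these values was not tested. The median log2 fold change of the 10 genes was -0.20, beside -0.11 for all genes. Gbp2 was at 0.11 ± 0.28 with TMM scaling and at -0.16 with library size scaling. Library size scaling and the block together called Gbp6 (log2 -0.70, adjusted p = 0.0203) and Gbp9 (log2 -0.83, adjusted p = 0.0255) lower. That setting lowers the median of all genes to -0.34 and called 2052 of 12441 genes lower.

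**Figure D4:**
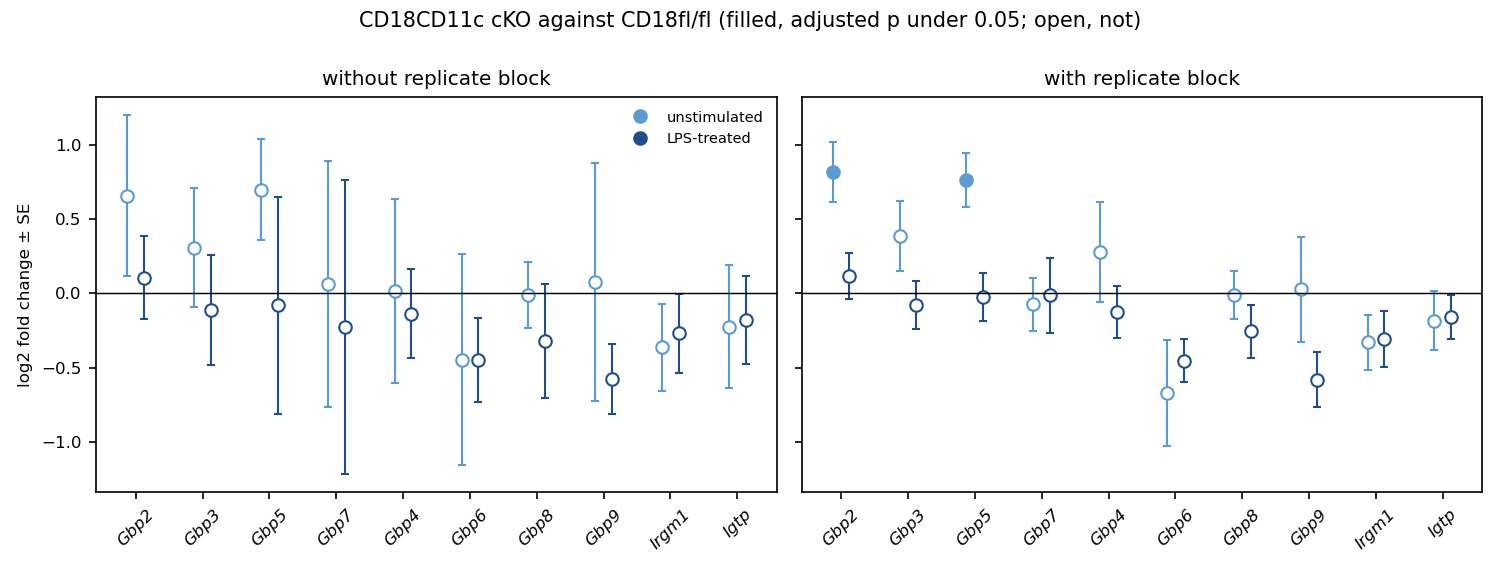
Log2 fold change of CD18CD11c cKO against CD18fl/fl BMDCs (y axis, with the SE, TMM scaling) for the 10 genes (x axis), unstimulated (light blue) and LPS-treated (dark blue), without and with the replicate block. Only Gbp2 and Gbp5 in unstimulated BMDCs with the block passed an adjusted p of 0.05 (filled), and with library size scaling Gbp3, Gbp4, Gbp7 and Gbp9 (unstimulated) and Gbp2 (LPS-treated) change sign.

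Whether the LPS response itself differed between the genotypes was tested as an interaction on all 12 libraries. Of the 10 genes, 0 passed by edgeR, by DESeq2 or with the replicate block, 0 had an unadjusted p under 0.05, and of all 13752 genes 0% passed. The interaction terms, CD18CD11c cKO minus CD18fl/fl, ranged from -0.71 ± 0.86 (SE) for Gbp5 to 0.17 ± 0.38 for Irgm1 on the log2 scale, and 7 of the 10 were below 0. Gbp2 was at -0.48 ± 0.63. These errors leave room for differences in either direction.

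Other genes of the 2 families responded to LPS as well. Of 17 found in the files, 16 were tested in CD18fl/fl BMDCs. There 3 passed, all higher (Iigp1, Ifi47 and Gm4951), against 2.06% of all genes. With the block 7 passed, against 1627 of 12744 genes. In CD18CD11c cKO BMDCs 15 were tested and 5 passed, all higher (Irgm2, Iigp1, Ifi47, Tgtp2 and Gm4951), against 2.23% of all genes. With the block 7 were higher and 1 lower, against 1300 higher and 1260 lower of 12687 genes. Iigp1 (Irga6), an effector IRG that coats vacuoles, was at 82, 15 and 4 reads in unstimulated and 1641, 1757 and 640 reads in LPS-treated CD18fl/fl libraries (log2 5.61 ± 1.14, adjusted p = 0.0465), and at 46, 45 and 0 against 849, 2100 and 1606 reads in CD18CD11c cKO (log2 5.81 ± 1.18, adjusted p = 0.0450). Gm4951, an IRG family gene, rose from 90, 57 and 21 to 683, 671 and 379 reads (log2 3.65 ± 0.64, adjusted p = 0.0348) and from 39, 40 and 62 to 354, 437 and 396 reads (log2 3.31 ± 0.34, adjusted p = 0.0123). Irgm2, the third regulatory IRG, was at 14.1, 9.10 and 6.79 CPM against 24.9, 22.4 and 17.6 CPM in CD18fl/fl (log2 1.12 ± 0.33, adjusted p = 0.108, and 0.0299 with the block) and at 6.58, 4.67 and 5.81 against 18.5, 18.7 and 18.4 CPM in CD18CD11c cKO (log2 1.66 ± 0.26, adjusted p = 0.0254). Before LPS its groups did not overlap, with CD18CD11c cKO lower (log2 -0.76 ± 0.35, adjusted p = 0.327, and 0.0988 with the block).

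Ifi47, an IRG of the effector type, was at 52.1, 38.3 and 15.7 CPM in unstimulated and 171, 203 and 147 CPM in LPS-treated CD18fl/fl libraries (log2 2.30 ± 0.45, adjusted p = 0.0442). In CD18CD11c cKO it was at 70.9, 65.2 and 24.5 CPM and 200.4, 345 and 217 CPM (log2 2.20 ± 0.44, adjusted p = 0.0450). In unstimulated BMDCs it was higher in CD18CD11c cKO within each replicate number, by log2 ratios of 0.45, 0.77 and 0.64 (log2 0.64 ± 0.54, adjusted p = 0.590, and 0.67 ± 0.15, adjusted p = 0.0197, with the block). Tgtp2, an effector IRG, was at 11.1, 4.59 and 0.241 CPM against 115, 129 and 43.3 CPM in CD18fl/fl (log2 4.17 ± 1.16, adjusted p = 0.0944, and 0.0150 with the block) and at 14.9, 8.07 and 1.91 against 119.6, 256 and 115 CPM in CD18CD11c cKO (log2 4.26 ± 0.75, adjusted p = 0.0342). Tgtp1 and Tgtp2 are near-identical copies, so reads may be divided between them in an uncertain way.

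Gbp2b, which lies between Gbp3 and Gbp2, had negative fold changes with LPS. Its reads numbered 609, 666 and 13 before and 143, 46 and 77 after LPS in CD18fl/fl libraries, and 1138, 1057 and 525 and then 196, 276 and 288 in CD18CD11c cKO. In CD18fl/fl the groups overlapped through unstimulated replicate 3 (log2 -2.04 ± 1.14, adjusted p = 0.324, and 0.484 with the block). In CD18CD11c cKO they did not overlap (log2 -1.66 ± 0.40, adjusted p = 0.0665, and -1.57 ± 0.34, adjusted p = 0.0201, with the block). Between the genotypes, Gbp2b was higher in each LPS-treated CD18CD11c cKO library (7.94, 12.4 and 9.32 CPM) than in any CD18fl/fl library (4.59, 1.71 and 1.96 CPM), with log2 1.82 ± 0.47 (adjusted p = 0.355) and 1.93 ± 0.43 (adjusted p = 0.0353) with the block. Before LPS it was at 16.9, 16.7 and 0.347 CPM in CD18fl/fl and 40.5, 35.2 and 15.2 CPM in CD18CD11c cKO (log2 1.46 ± 1.10, adjusted p = 0.541, and 0.0607 with the block).

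**Figure D5:**
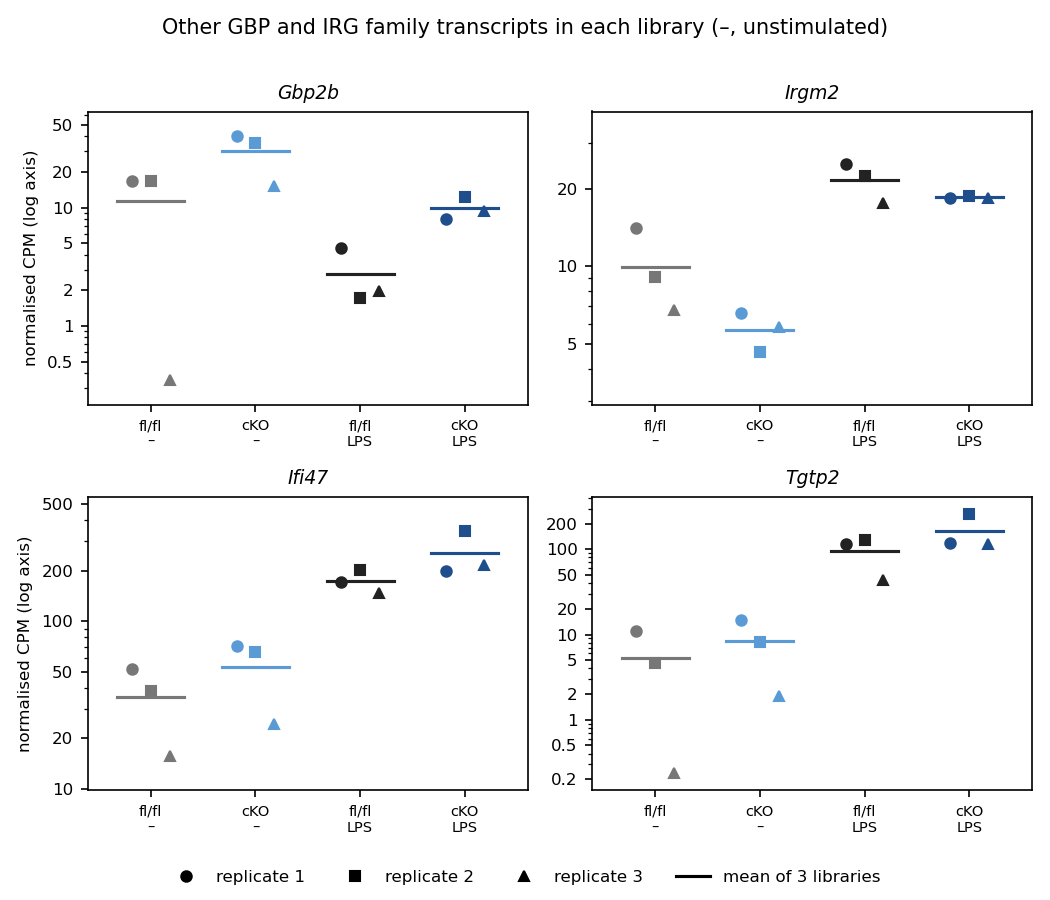
Normalized CPM (y axis, log scale, its range set for each gene) of Gbp2b, Irgm2, Ifi47 and Tgtp2 in the 12 libraries by genotype and stimulation (x axis), with symbols for the replicate number and lines for the mean of 3 libraries. Irgm2, Ifi47 and Tgtp2 are higher in all LPS-treated libraries of each genotype, and Gbp2b is lower except beside unstimulated CD18fl/fl replicate 3, which held 13 reads.

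The remaining members of the families were low or did not pass without the block. Gbp10, which shares sequence with Gbp6, had 1, 14 and 1 reads before and 32, 45 and 6 after LPS in CD18fl/fl libraries, and 0, 0 and 0 and then 18, 28 and 22 in CD18CD11c cKO. Gbp11 had 0 to 77 reads before and 26 to 78 after LPS, and Gm4841 had 0 reads in every unstimulated and 6 to 28 in every LPS-treated library. F830016B08Rik had 0 to 82 reads in all. 9930111J21Rik1, 9930111J21Rik2, Gm5431, Gm12185, Irgq, Irgc1 and Tgtp1 passed in neither LPS comparison without the block. With it, Gm12185 (adjusted p = 0.0351 and 0.0230 in CD18fl/fl and CD18CD11c cKO), Tgtp1 (0.00923 in CD18fl/fl) and Gm5431 (0.0147 in CD18CD11c cKO) passed. Of the nearest tested genes outside the 4 clusters, 0 of 8 in CD18fl/fl and 0 of 7 in CD18CD11c cKO passed with LPS. This held with and without the block. Among all genes 496 of 12744 and 506 of 12687 passed, and 1627 and 2560 with the block. With replicates 1 and 2 alone, 4 of 7 and 2 of 7 passed, near or above 6140 of 12924 and 2049 of 12872 of all genes. Trim7 and Kyat3 were lower in both genotypes, and in CD18fl/fl 4930438A08Rik was lower and Mrpl22 higher. Mrpl22, beside Igtp, was higher in CD18CD11c cKO BMDCs with the block (log2 1.27 ± 0.15, adjusted p = 0.00318, unstimulated, and 1.23 ± 0.17, adjusted p = 0.00961, LPS-treated), without which its adjusted p was 0.156 and 0.349.

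Upstream of the GTPases, transcripts of interferon-β and interferon-γ were few before LPS. Ifnb1, the gene of interferon-β, had 5, 0 and 0 reads in unstimulated CD18fl/fl libraries and 139, 103 and 8 after LPS, and 0, 0 and 0 in unstimulated CD18CD11c cKO libraries and 36, 195 and 71 after LPS. It passed the test in CD18CD11c cKO (adjusted p = 0.0401), but with 0 reads before LPS the fitted size depends on the prior count. In CD18fl/fl it did not pass the filter on low counts. Ifng, the gene of interferon-γ, had 0 to 19 reads in all libraries and 0, 0 and 0 in the LPS-treated CD18fl/fl libraries. The receptor gene Ifngr1 was at 239, 224 and 57.0 CPM before and 79.5, 66.9 and 27.6 CPM after LPS in CD18fl/fl (log2 -1.58 ± 0.62, adjusted p = 0.183, and 0.0185 with the block) and at 198, 186 and 54.9 and 68.0, 55.8 and 23.5 CPM in CD18CD11c cKO (log2 -1.64 ± 0.55, adjusted p = 0.147, and 0.00377 with the block). Replicate 3 was the lowest library of each group for Ifngr1. The receptor genes Ifngr2 and Ifnar2 had positive fold changes with LPS. For Ifngr2 these were 1.07 ± 0.42 (adjusted p = 0.1801, and 0.0627 with the block) in CD18fl/fl and 1.00 ± 0.43 (adjusted p = 0.235, and 0.0438 with the block) in CD18CD11c cKO on the log2 scale. For Ifnar2 they were 0.78 ± 0.23 (adjusted p = 0.106, and 0.0714 with the block) and 0.64 ± 0.26 (adjusted p = 0.211, and 0.0495 with the block). With the block, both were lower in unstimulated CD18CD11c cKO than in CD18fl/fl BMDCs (log2 -0.56, adjusted p = 0.0260, for Ifngr2 and -0.48, adjusted p = 0.0459, for Ifnar2), and after LPS the adjusted p was 0.0501 and 0.0372 (log2 -0.68 and -0.66). Without it their adjusted p between the genotypes was 0.335 and 0.285 before and 0.747 and 0.499 after LPS. Of the 14 ligand and receptor genes, 6 or 7 passed the filter on low counts in each comparison within or between the groups.

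Of the JAK-STAT and IRF genes named by the smallest p, Irf7, Stat2 and Usp18 were higher after LPS in both genotypes. Irf7, an interferon-induced transcription factor, rose from 20.1, 14.4 and 2.97 to 683, 712 and 479 CPM in CD18fl/fl (log2 5.64 ± 0.75, adjusted p = 0.0162) and from 8.47, 8.70 and 2.98 to 500.2, 509 and 391 CPM in CD18CD11c cKO (log2 6.07 ± 0.50, adjusted p = 0.00916). Stat2, a subunit of the complex that binds ISREs, rose by log2 2.96 (adjusted p = 0.0127) and 3.14 (adjusted p = 0.0131). Usp18, which limits interferon receptor signaling, rose by log2 3.51 (adjusted p = 0.0206) and 2.98 (adjusted p = 0.0219). Of the 9 genes from TLR4 to TRIF, 0 passed by edgeR in CD18fl/fl or CD18CD11c cKO, DESeq2 called 4 higher and 1 lower, and 3 higher, respectively, and 3 and 6 were higher with the block. Among them was Ly96, the partner of TLR4 in LPS binding (log2 1.95 and 1.72 without the block, adjusted p = 0.0570 and 0.0876). Of all genes, 6.33% in CD18fl/fl and 10.2% in CD18CD11c cKO were higher with the block, and 6.91% and 5.45% by DESeq2.

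Among 13 genes of proteins that act with GBPs and IRGs, 5 were higher after LPS in CD18fl/fl and 4 in CD18CD11c cKO BMDCs, against 2.06% and 2.23% of all genes. Casp4 (caspase-11), the cytosolic LPS receptor, rose from 18.2, 17.9 and 21.6 to 115, 126 and 106 CPM in CD18fl/fl (log2 2.59 ± 0.22, adjusted p = 0.00989) and from 22.9, 19.1 and 19.9 to 142, 142 and 106 CPM in CD18CD11c cKO (log2 2.61 ± 0.23, adjusted p = 0.0115). Casp1, the protease that matures interleukin-1β, rose by log2 1.58 (adjusted p = 0.0192) and 1.28 (adjusted p = 0.0300). Il1b rose by log2 4.61 (adjusted p = 0.0248) and 4.62 (adjusted p = 0.0210). Trim21, a cytosolic Fc receptor and ubiquitin ligase, rose by log2 1.79 (adjusted p = 0.0162) and 1.15 (adjusted p = 0.0483). Between the genotypes, 0 of the 13 passed by edgeR without the block or by DESeq2. Of all genes, 0% passed by edgeR, and 6.03% before and 1.3% after LPS by DESeq2. With the block, 3 were higher and 2 lower in unstimulated CD18CD11c cKO BMDCs, among them Il1b (log2 0.78, adjusted p = 0.0282) and Casp1 (log2 0.48, adjusted p = 0.0432), both higher, and 0 passed after LPS. Among all genes the block called 1555 higher and 1051 lower of 12876 before LPS, and 869 and 393 of 12441 after LPS.

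Calls in the other lists stand beside those among all genes with LPS. In CD18fl/fl, edgeR called 263 genes higher and 233 lower of 12744, and 807 and 820 with the block. In CD18CD11c cKO these were 283 and 223 of 12687, and 1300 and 1260 with the block. DESeq2 called 969 higher and 826 lower of 14027, and 776 and 755 of 14251, respectively. Of 12 genes of the ATG conjugation system, which helps to place GBPs and IRGs on vacuoles, 0 passed by edgeR in either LPS comparison, DESeq2 called 2 higher in CD18fl/fl and 1 higher in CD18CD11c cKO, and with the block 2 were higher in CD18fl/fl and 3 higher and 2 lower in CD18CD11c cKO. Of 8 enzymes of CaaX prenylation, which anchors Gbp2 and Gbp5 in membranes, 0 passed by edgeR without the block and DESeq2 called 1 higher in each genotype. With the block, 1 passed in CD18fl/fl (lower) and 2 in CD18CD11c cKO (1 higher and 1 lower). Ggps1, which makes the lipid for geranylgeranylation, had log2 fold changes of 1.35 (adjusted p = 0.0737) in CD18fl/fl and 1.29 (adjusted p = 0.0153) in CD18CD11c cKO with the block, and was higher in unstimulated CD18CD11c cKO than in CD18fl/fl BMDCs (log2 0.57, adjusted p = 0.0432). Zmpste24, a CaaX protease, was lower with the block in both genotypes (log2 -0.89, adjusted p = 0.0481, and -0.74, adjusted p = 0.0290). Of 3 atlastins, GTPases related to GBPs, 0 passed by edgeR without the block, and with it 1 was higher in each genotype, as 1 was in CD18CD11c cKO by DESeq2. Among 4 detected genes of a list of other interferon-induced GTPases, Gvin2 (log2 1.63, adjusted p = 0.0443) and Mx2 (log2 3.68, adjusted p = 0.0388) rose in CD18fl/fl and Mx2 (log2 3.56, adjusted p = 0.0258) in CD18CD11c cKO BMDCs, where Mx2 went from 2.56, 2.50 and 0.578 to 20.5, 25.9 and 22.3 CPM.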

How the data were processed

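RNA-seq of MHCII+ BMDCs gave 12 libraries, 3 in each of 4 groups. Poly(A) libraries were read from one end (59 nt) and mapped and counted by the authors in CLC Genomics Workbench with default settings. The deposited tables hold total and unique gene reads, which are raw counts per gene, and TPM computed by the authors. The labels name GRCm38 and the paper GRCm39, and the coordinates in the files are those of GRCm39. The strand setting and the annotation release are not given in the sources used here.

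Groups and replicate numbers came from the labels. Total gene reads were tested with edgeR (4.0.16, R 4.3.3) by quasi-likelihood F tests after TMM scaling and filterByExpr with a minimum count of 10, and p-values were adjusted after Benjamini and Hochberg across the genes of each fit (threshold 0.05). LPS was tested within each genotype and genotype within each state, each on 6 libraries, and the interaction on 12. SEs were derived from the F statistic, and levels are TMM-normalized CPM over the 12 libraries. Deviations from the group means correlated between libraries of the same number in all 12 pairs (r = 0.265 to 0.716). Replicate 1 of one group and replicate 2 of the other also correlated (r = 0.154 to 0.334). Replicate 3 against replicate 1 or 2 gave r = -0.571 to -0.321. These values set replicate 3 apart and cannot show that replicates 1 and 2 are paired. The main fits did not pair the libraries, and the labels do not say what a number shares. The fit with the replicate block, which takes the numbers to pair the libraries, was the alternative and is given beside the results it changes.

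Alternatives were DESeq2 (1.42.0), RLE scaling, library size scaling, no filter on low counts, unique reads, the block without and with an offset for exon length (lowess, span 0.3), a fit on all 12 libraries and each library left out. Replicates 1 and 2 alone, and the block with unique reads, with library size scaling or on all 12 libraries, were added after seeing the data. The scripts were tested on simulated data. The 10 genes and all gene lists were chosen with earlier results of these data known. Named are the 10 genes, the detected genes of the other GBP and IRG list, up to 4 genes of each other list with the smallest p in an LPS comparison, the 10 genes most correlated with the members over 12 libraries, Itgb2 and the nearest tested neighbours of the clusters. A gene that this rule names is not reported here.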

Additional observations from a re-analysis of the deposited data

How the results depend on the processing

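Of the 10 genes, 4 passed with LPS in CD18fl/fl. There were 9 with DESeq2, 2 with library size scaling, 7 with no filter on low counts, 8 each with the replicate block, the block and length offset, the fit on all 12 libraries and unique reads with the block, 7 with library size scaling and the block, 9 with the block on all 12 libraries and 9 with replicates 1 and 2 alone. In CD18CD11c cKO 7 passed, and 4 with library size scaling. Leaving out 1 library gave 0 to 8 and 0 to 7, where 0 to 3268 and 0 to 1033 of all genes passed. Between unstimulated genotypes 0 passed, 2 with the replicate block, 2 with unique reads and the block, 1 with the block and length offset (Gbp5) and 1 with library size scaling and the block (Irgm1, lower). Between LPS-treated genotypes 0 passed, and 2 with library size scaling and the block (Gbp6 and Gbp9, lower). No other setting changed these counts by over 1.5 times, and 0 passed the interaction under any. The cause of these changes was not tested. Over all genes, in the order LPS in CD18fl/fl, LPS in CD18CD11c cKO, genotype before and genotype after LPS, 496, 506, 0 and 0 passed, and 1627, 2560, 2606 and 1262 with the replicate block, 1802, 2566, 1547 and 888 with the block and length offset, 3365, 3016, 1115 and 623 with the block on all 12 libraries, 1680, 2601, 2622 and 1367 with unique reads and the block, 1621, 2748, 4583 and 2642 with library size scaling and the block, 1795, 1531, 538 and 150 with DESeq2, 6140, 2049, 1383 and 523 with replicates 1 and 2 alone, 1068, 983, 19 and 45 with the fit on all 12 libraries and 691, 805, 0 and 1 with no filter on low counts. Library size scaling turned the split of higher to lower genes from 263 and 233 to 143 and 304 (CD18fl/fl) and from 283 and 223 to 186 and 300 (CD18CD11c cKO).

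In the unstimulated genotype comparison the log2 fold change changed sign with library size scaling for Gbp3 (-0.077), Gbp4 (-0.37), Gbp7 (-0.29) and Gbp9 (-0.33), with library size scaling and the block for Gbp3 (-0.0068), Gbp4 (-0.12), Gbp7 (-0.46) and Gbp9 (-0.37), with the fit on all 12 libraries for Gbp4 (-0.025) and Gbp7 (-0.0088), with replicates 1 and 2 alone for Gbp4 (-0.16), Gbp7 (-0.10) and Gbp8 (0.12), with the replicate block for Gbp7 (-0.074), with the block on all 12 libraries for Gbp7 (-0.11) and Gbp9 (-0.0020), with unique reads and the block for Gbp7 (-0.068). In the LPS-treated comparison the sign changed with library size scaling for Gbp2 (-0.16), with library size scaling and the block for Gbp2 (-0.14), with the block and length offset for Gbp3 (0.023), Gbp4 (0.050), Gbp5 (0.13) and Gbp7 (0.19), with replicates 1 and 2 alone for Gbp5 (0.038) and Gbp7 (0.24), with the block on all 12 libraries for Gbp7 (0.078). For the interaction it changed with the replicate block for Gbp7 (0.19), with the block and length offset for Gbp7 (0.038), with replicates 1 and 2 alone for Gbp7 (0.37) and Irgm1 (-0.0030), with unique reads and the block for Gbp7 (0.18), with library size scaling and the block for Gbp7 (0.24). With 1 library left out, log2 fold changes that crossed 0 had these ranges. With LPS in CD18fl/fl they were Gbp7 -0.81 to 1.72. With LPS in CD18CD11c cKO they were Gbp7 -0.64 to 1.67. Between unstimulated genotypes they were Gbp3 -0.014 to 0.53, Gbp4 -0.43 to 0.53, Gbp6 -1.44 to 0.11, Gbp7 -1.002 to 0.95, Gbp8 -0.14 to 0.085, Gbp9 -0.60 to 0.72 and Igtp -0.52 to 0.019. Between LPS-treated genotypes they were Gbp2 -0.058 to 0.24, Gbp3 -0.40 to 0.23, Gbp5 -0.95 to 0.88 and Gbp7 -1.41 to 1.40. For the interaction they were Gbp4 -0.71 to 0.26, Gbp5 -1.54 to 0.18, Gbp6 -0.57 to 1.09, Gbp7 -1.34 to 1.33, Gbp9 -1.32 to 0.090, Irgm1 -0.12 to 0.35 and Igtp -0.24 to 0.38. With 3 libraries a group and replicate 3 apart from the others, SEs of the interaction reached the size of the terms, so small differences between genotypes could not be detected.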
